A study of Mus musculus with 2 samples.

Results

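The TGF-beta ligands Tgfb1, Tgfb2 and Tgfb3 and their receptors Tgfbr1, Tgfbr2, Tgfbr3 and Eng were examined in the face of the mouse embryo. They were taken by gene symbol, and all 7 were found among the 55536 genes of annotation release GENCODE M21, of which 22028 are protein-coding. PolyA plus RNA-seq, which reads polyadenylated transcripts, was made from the facial prominences of untreated B6NCrl embryos at 12.5 days. Replicate 1 was a pool of 120 embryos and replicate 2 a pool of 88, both of males and females mixed, and each library started from 10 ng of RNA. Both samples form 1 group with no second condition, so levels and isoforms are described and no test between conditions exists. Each pool averages over whole prominences of many embryos, and in such bulk tissue fewer cells of a type cannot be told apart from less RNA per cell.

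TGF-beta ligands are secreted as latent dimers, held inactive by their own propeptide and stored in the matrix until proteases or integrins release them. The active dimer is bound by the type II receptor Tgfbr2, which recruits and phosphorylates the type I receptor Tgfbr1, and Tgfbr1 in turn phosphorylates Smad2 and Smad3. Tgfbr3, also called betaglycan, presents ligand and matters most for Tgfb2, which binds Tgfbr2 poorly alone, and Eng, endoglin, is the related co-receptor of endothelial cells. In the face the pathway is known for its part in neural crest mesenchyme and in fusion of the palate, where loss of Tgfb3 causes cleft palate in mice.

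The isoform findings below turn on 4 short coding stretches by which transcripts of Tgfb2, Tgfbr2 and Eng differ, and these are shown first. They were read from the GENCODE M21 transcripts on GRCm38 (mm10), 5′ to 3′ on the coding strand. Capitals mark coding bases that 1 transcript holds and the other lacks, and lower case gives the 15 bases on either side. Each is followed by the junction at the same place in the transcript without those bases. For Tgfb2, Tgfbr2 and the 3-base stretch of Eng the flanks join there. For Eng-202 only the left flank is shared, as its right flank is untranslated sequence of the same kept intron.
Tgfb2-206 (chr1:186690721-186690804, minus strand, 84 coding bases, exon 2 of 8): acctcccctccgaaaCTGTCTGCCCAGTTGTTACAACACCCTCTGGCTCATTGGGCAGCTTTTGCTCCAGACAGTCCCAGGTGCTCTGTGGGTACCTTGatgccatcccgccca
Tgfb2-201 (junction): acctcccctccgaaaatgccatcccgccca
Tgfbr2-202 (chr9:116158271-116158345, minus strand, 75 coding bases, exon 2 of 8): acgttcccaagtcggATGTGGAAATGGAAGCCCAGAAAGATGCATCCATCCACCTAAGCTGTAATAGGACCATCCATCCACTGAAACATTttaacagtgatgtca
Tgfbr2-201 (junction): acgttcccaagtcggttaacagtgatgtca
Eng-202 (chr2:32681298-32681383, plus strand, 86 coding bases, exon 14 of 14): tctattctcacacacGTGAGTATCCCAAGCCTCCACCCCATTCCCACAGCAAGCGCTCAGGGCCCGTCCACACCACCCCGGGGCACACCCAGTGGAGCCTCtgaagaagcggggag
Eng-201 (junction): tctattctcacacacgtggccccagcaagc
Eng-201 (chr2:32657516-32657518, plus strand, 3 coding bases, exon 2 of 15): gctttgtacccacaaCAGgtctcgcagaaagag
Eng-205 (junction): gctttgtacccacaagtctcgcagaaagag

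The stretches of Tgfb2 and Tgfbr2 are whole exons whose lengths are multiples of 3, so the reading frame continues through them. The stretch of Eng-202 is the start of an intron that is kept rather than removed, and the stop codon tga follows it directly. Eng-201 lacks 139 bases there, the 86 coding ones and 53 that follow them. The 3 bases of Eng lie at the start of an exon, where splicing can join at either of a pair of neighbouring sites.

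All 7 genes were expressed in the facial prominences, where a gene counts as detected once both libraries reach a TPM of 1. TPM is the deposited length-corrected measure of a transcript's share of the library, and 60.7% of all protein-coding genes passed the same minimum. Their median level was 26.8 TPM, beside 21.5 TPM over the 13382 detected protein-coding genes. Together they made up 229 TPM in replicate 1 and 230 TPM in replicate 2. Of this, the 3 ligands held 95.2 and 97.0 TPM and the 4 receptors and co-receptors 133 TPM in each replicate. Depth was 28705073 and 41092194 summed expected counts, and spike-in RNAs took 2.85% and 3.10% of them. All 9 facial mesenchyme markers were detected, with Msx1 highest at 319 and 308 TPM and Alx4 lowest at 19.1 and 21.8 TPM. The listed markers of epithelium, neurons, skeletal muscle and cartilage were all detected too, so detection alone does not test the tissue label.

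**Figure D1:**
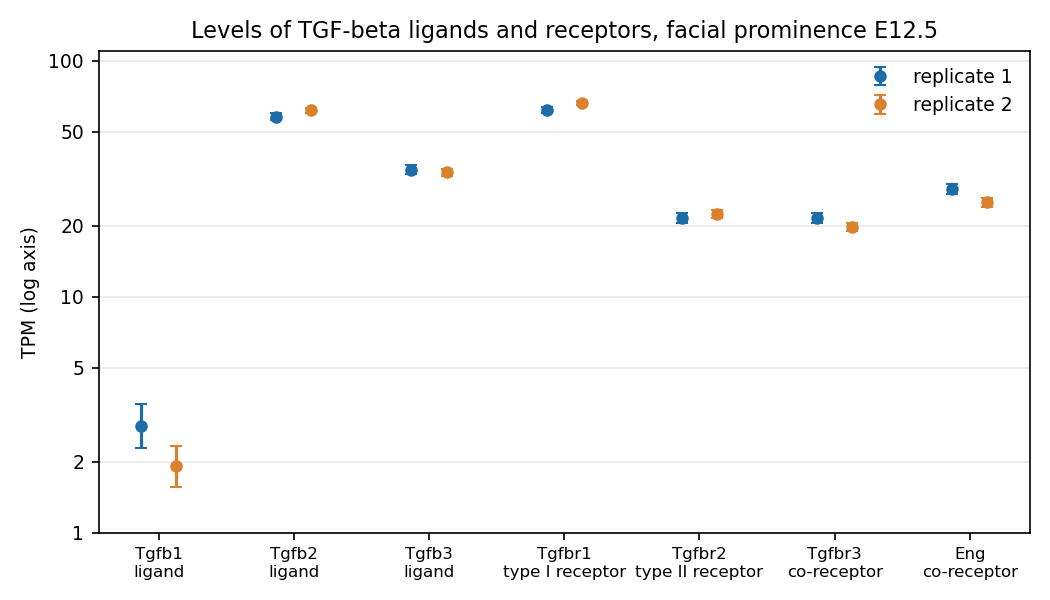
Deposited TPM (log axis) of the 7 genes in replicate 1 and replicate 2, with bars for the exact Poisson 95% interval of the expected count. Tgfbr1 and Tgfb2 lie highest, between 57.8 and 65.8 TPM, 4 genes lie between 19.8 and 34.5 TPM, and Tgfb1 lies lowest at 2.84 and 1.92 TPM.

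Tgfb2 was the most abundant ligand at the level of the gene. Tgfb2 (ENSMUSG00000039239.14, chromosome 1, 186622792 to 186705989, minus strand) had 57.8 TPM in replicate 1 and 61.5 in replicate 2, from 3255 and 4871 expected counts. Its mean of 59.6 ± 2.57 TPM (SD, n = 2) exceeded the mean of 77.9% of detected protein-coding genes.

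Tgfb3, the ligand of palate fusion (ENSMUSG00000021253.7, chromosome 12, 86056745 to 86079041, minus strand), stood at 34.5 and 33.6 TPM. Its mean was 34.0 ± 0.643 TPM (SD, n = 2), and in both replicates it lay below Tgfb2, which was 1.68 and 1.83 times as high. The replicate ranges of these ligands did not overlap.

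Tgfb1, the ligand best known from immune cells, platelets and wound repair, was the lowest of the 7 genes. It lies on the plus strand of chromosome 7, 25687002 to 25705077 (ENSMUSG00000002603.15). It had 2.84 TPM in replicate 1 and 1.92 in replicate 2, from 88 and 103 expected counts, with a mean of 2.38 ± 0.651 TPM (SD, n = 2). Counting error alone gave 95% intervals of 2.28 to 3.50 TPM and 1.57 to 2.33 TPM, so both libraries place it far below the other ligands. Tgfb2 was 20.4 and 32.0 times as high and Tgfb3 12.1 and 17.5 times. Only 8.32% of detected protein-coding genes had a lower mean.

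Within the summed ligand TPM, Tgfb2 made up 60.8% in replicate 1 and 63.4% in replicate 2, and Tgfb3 made up 36.2% and 34.6%. Tgfb1 made up 2.98% and 1.98%. The order of the ligands was the same in both libraries.

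Among the receptors, the type I receptor stood above its type II partner. Tgfbr1 (ENSMUSG00000007613.15, chromosome 4, 47353222 to 47414931, plus strand) had 61.7 TPM in replicate 1 and 65.8 TPM in replicate 2, a mean of 63.8 ± 2.91 TPM (SD, n = 2), and was the highest of the 7 genes. Tgfbr2 (ENSMUSG00000032440.13, chromosome 9, 116084293 to 116175360, minus strand) had 21.5 and 22.4 TPM, a mean of 22.0 ± 0.651 TPM (SD, n = 2). Tgfbr1 was therefore 2.87 times as high as Tgfbr2 in replicate 1 and 2.94 times in replicate 2. These are levels of transcripts and not of receptor proteins.

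The co-receptors were close to Tgfbr2. Tgfbr3 (ENSMUSG00000029287.14, chromosome 5, 107106570 to 107289629, minus strand) had 21.6 and 19.8 TPM, with a mean of 20.7 ± 1.30 TPM (SD, n = 2). Eng (ENSMUSG00000026814.16, chromosome 2, 32646595 to 32682669, plus strand) had 28.6 and 25.1 TPM, with a mean of 26.8 ± 2.48 TPM (SD, n = 2). Eng lay above Tgfbr2 and Tgfbr3 in both libraries.

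From high to low by mean TPM the order was Tgfbr1, Tgfb2, Tgfb3, Eng, Tgfbr2, Tgfbr3 and Tgfb1. Of the neighbours in this order, 2 pairs did not differ beyond their summed SDs. Tgfbr2 and Tgfbr3 had overlapping replicate values, and Tgfbr2 over Tgfbr3 was 0.996 in replicate 1 and 1.14 in replicate 2. Tgfbr1 and Tgfb2 differed by 4.12 TPM in the mean, less than the 5.48 TPM of their summed SDs. Their replicate values did not overlap, however, and Tgfbr1 was 1.07 times as high in each library. For the other neighbours the difference of the means exceeded the summed SDs.

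The picture for the ligands depended on which transcripts were counted. The deposited transcript tables divide each gene's TPM among annotated transcripts, and a transcript is named where it carried at least 10% of its gene in both replicates. Retained-intron transcripts, annotated as keeping part of an intron and giving no protein, reached 10% in both replicates for 3 of 7 genes, beside 27.7% of detected protein-coding genes. They were Tgfb1, Tgfb2 and Tgfbr3.

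For Tgfb2 the leading transcript carried a minority of the gene. Tgfb2-201, coding and without the 84-base exon, carried 40.0% in replicate 1 and 40.8% in replicate 2. Tgfb2-206, coding and with that exon, carried 23.0% and 21.1%, or 13.3 and 12.9 TPM. This longer form was described early for TGF-beta 2, and the extra residues fall in the propeptide rather than in the active ligand. Among the coding transcripts alone Tgfb2-206 made up 36.5% and 34.1% of the TPM. Besides the 84-base exon, the annotation gives Tgfb2-201 a total of 1715 bases of its own, all untranslated and 1426 of them at the 3′ end. The estimated share therefore also rests on reads from the untranslated ends.

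Most of the rest of Tgfb2 was assigned to short retained-intron transcripts, and 1.42% and 2.83% to the noncoding Tgfb2-203. Tgfb2-205 carried 20.7% and 25.0%, and Tgfb2-202 carried 14.8% and 10.4%. Of the 898 bases of Tgfb2-205, 82.4% are also exonic in Tgfb2-201, and of the 744 bases of Tgfb2-202, 87.6%. The retained-intron class held 35.5% and 35.4% of the TPM of Tgfb2 but only 8.55% and 8.80% of its expected counts, because TPM divides counts by length and these transcripts are short.

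With coding transcripts only, Tgfb2 and Tgfb3 drew close. Tgfb2 then had 36.5 TPM in replicate 1 and 38.0 TPM in replicate 2, and Tgfb3, whose single annotated transcript Tgfb3-201 carried 100% of the gene, kept 34.5 and 33.6 TPM. The ratio of Tgfb2 to Tgfb3 was 1.06 and 1.13 on coding transcripts, in place of 1.68 and 1.83 on the gene. Tgfb3 has no annotated noncoding transcript to leave out, so this ratio could only fall or stay equal. The shares of the ligand TPM became 50.3% and 52.2% for Tgfb2, against 47.6% and 46.1% for Tgfb3. Tgfbr1 kept its TPM on coding transcripts, and its ratio to Tgfb2 became 1.69 and 1.73, in place of 1.07 in each replicate on the genes. These comparisons were added after the transcript values had been seen.

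**Figure D2:**
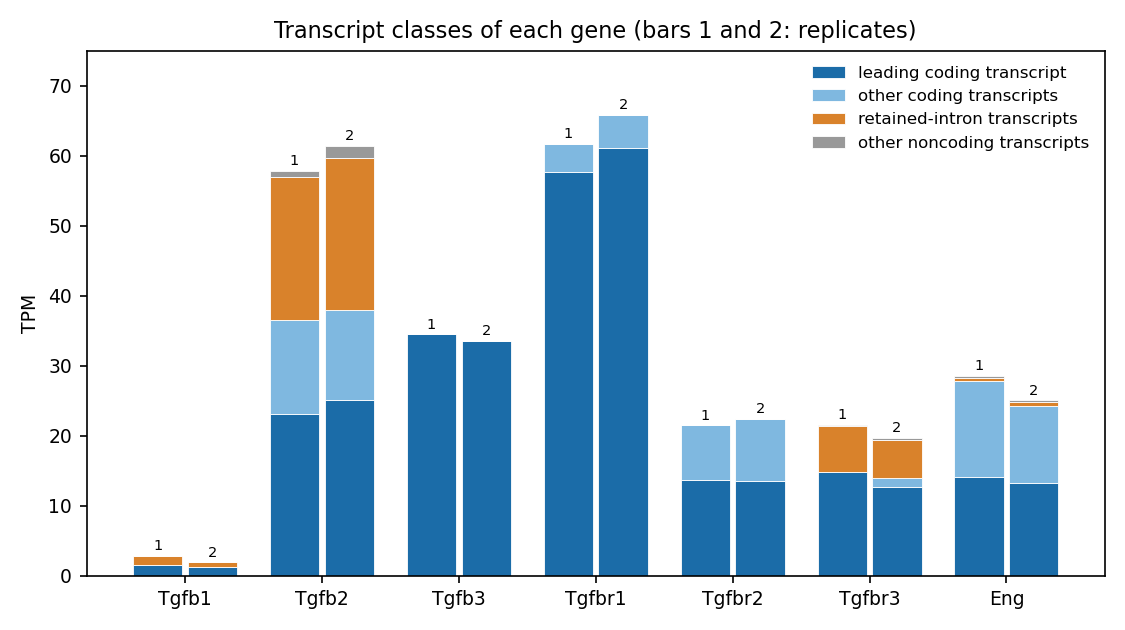
Stacked TPM of each gene in replicate 1 and replicate 2, divided into the leading coding transcript, other coding transcripts, retained-intron transcripts and other noncoding transcripts. Retained-intron transcripts take 35.5% and 35.4% of Tgfb2 and 30.3% and 28.1% of Tgfbr3, while Tgfb3 and Tgfbr2 have coding transcripts only.

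Tgfb1 reads were partly intronic. Its coding transcript Tgfb1-201 carried 53.6% and 65.6% of the gene, or 1.52 and 1.26 TPM. Tgfb1-204, a single stretch of 2573 bases inside the first intron (chromosome 7, 25688890 to 25691462), carried 18.5% and 26.6%, from 24 of 88 and 33 of 103 expected counts. None of its bases is exonic in Tgfb1-201. The short Tgfb1-203, named after its values were seen, took 27.9% in replicate 1 and 7.83% in replicate 2 from only 5.78 and 1.56 expected counts.

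The type I receptor was nearly uniform. Tgfbr1-201 carried 93.5% in replicate 1 and 92.8% in replicate 2, at 57.7 and 61.1 TPM, and no other of the 5 annotated transcripts reached 10% in both.

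Tgfbr2 was divided between both of its annotated isoforms. Tgfbr2-201, without the 75-base exon, carried 63.3% and 60.5%, and Tgfbr2-202, with it, carried 36.7% and 39.5%, which is 7.88 and 8.84 TPM. The longer form, often called type II-B, differs in the part outside the cell and has been described to bind TGF-beta 2 without betaglycan. Tgfbr2-202 has 4711 bases of its own, 75 coding and 4636 in the 3′ untranslated end, so most reads that can tell the isoforms apart lie outside the exon shown. The isoform lengths depend on the release: Tgfbr2-201 has 3476 bases in M21, against 4710 in the older release M4, and Tgfbr2-202 has 8092 bases in M21, against 4785 in M4. In M4 Tgfbr2-201 carried 77.4% and 63.2% of the gene.

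Tgfbr3-201, the full coding transcript, carried 68.8% and 64.3% of its gene, at 14.8 and 12.7 TPM. The retained-intron Tgfbr3-204, whose 1368 bases are 96.6% exonic in Tgfbr3-201, carried 30.3% and 28.1%. It took 8.50% and 8.31% of the expected counts. On coding transcripts Tgfbr2 over Tgfbr3 was 1.45 and 1.61, in place of 0.996 and 1.14 on the genes. Both annotated transcripts of Tgfbr2 are coding, so this ratio could only rise or stay equal.

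Eng had coding isoforms with long and short ends. Eng-201 carried 49.4% and 52.7%, and Eng-205, which lacks the 3 bases shown, carried 27.2% and 24.7%. Both encode the long cytoplasmic tail, and together they carried 76.6% and 77.4%. Eng-202, which keeps the intron and encodes the short tail, carried 15.7% and 17.2%, or 4.49 and 4.31 TPM. Against Eng-202, Eng-201 has 540 bases of its own, all in the 3′ untranslated end, so this share also rests on reads from untranslated sequence. Eng-201 and Eng-205 differ by few bases, 30 in Eng-201 and 11 in Eng-205, so the division between them rests on few reads.

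Of the 7 genes, Tgfb2, Tgfbr2 and Eng, 3 in all, had at least 2 coding transcripts at 10% in both replicates, beside 35.2% of detected protein-coding genes. The median share of the leading transcript was 61.9% over the 7 genes and 70.3% over all detected protein-coding genes. These shares are described and not tested.

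The difference between the pools was taken as the log2 of (TPM + 1) in replicate 1 over that in replicate 2. None of the 7 genes passed a 2-fold difference, where 0.157% of detected protein-coding genes did. None passed 1.5-fold either, where 1.25% did. The median log2 ratio was 0.04 over the 7 genes and 0.00 over all detected protein-coding genes. This is 1 library against 1 library, so no p-value is given, and the intervals below cover counting error only. At high counts such intervals exclude 1 for small shifts. The share of all detected genes whose interval excludes 1 is not given, so such intervals are not read as particular to these genes.

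Tgfb1 had the largest TPM ratio of the 7 genes, 1.48 (log2 ratio 0.40), but its ratio of expected counts, each divided by its library's gene total, was 1.22 with a 95% interval of 0.907 to 1.64. The TPM ratio was larger than the count ratio because the gene's effective length, which weights its transcripts by their shares, was 1681.02 bases in replicate 1 and 2050.14 in replicate 2. Without Tgfb1-203, Tgfb1 stood at 2.05 and 1.77 TPM.

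The co-receptors were higher in replicate 1. The scaled count ratio of Eng was 1.13, with an interval of 1.06 to 1.21, and its log2 ratio of TPM was 0.18. For Tgfbr3 the count ratio was 1.16 (interval 1.09 to 1.24) and the log2 ratio 0.12. Both stayed above 0 under each of the scalings and estimates tried, at 0.16 to 0.31 for Eng and 0.12 to 0.25 for Tgfbr3. A smaller pseudocount cannot turn a sign and spike-in scaling raised every ratio, so neither could bring them below 0. The posterior mean and release M4 values are estimates from the same reads.

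The signalling receptors and Tgfb2 were slightly lower in replicate 1. The count ratios were 0.947 for Tgfbr1 (interval 0.917 to 0.978), 0.954 for Tgfb2 (0.912 to 0.998) and 0.941 for Tgfbr2 (0.889 to 0.996), but the log2 ratios of these 3 genes turned from -0.09, -0.09 and -0.06 to 0.04, 0.05 and 0.07 when TPM was scaled on the spike-ins. That scaling moved the median of all detected protein-coding genes to 0.13, and these genes lay below the median under either scaling. Spike-in scaling multiplies all genes of a library alike, so this order was nearly fixed in advance. For Tgfb3 the count ratio of 1.03 had an interval that includes 1, from 0.977 to 1.09.

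**Figure D3:**
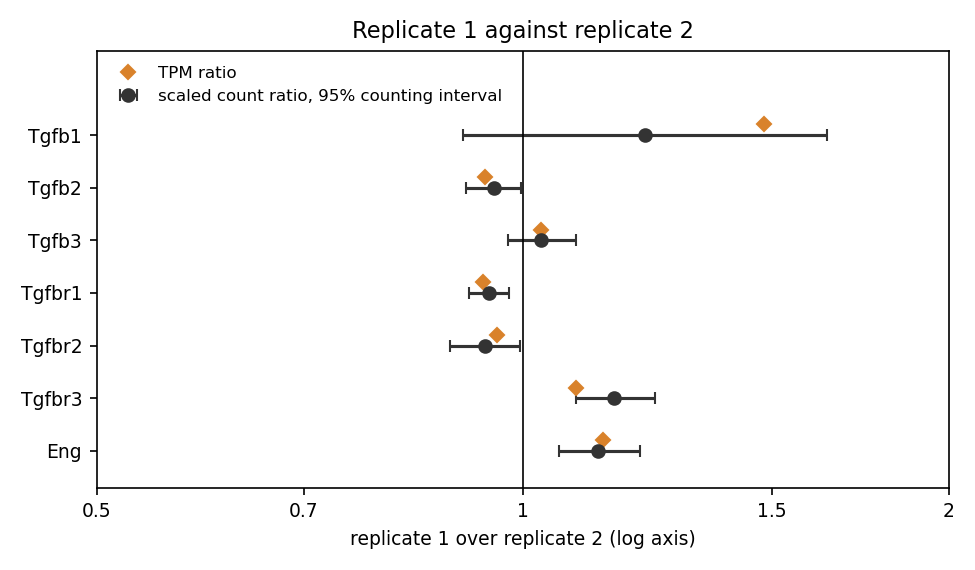
Replicate 1 over replicate 2 (log axis) for each gene, as the scaled ratio of expected counts with its exact 95% counting interval and as the ratio of TPM. The intervals of Tgfbr3 and Eng lie above 1, those of Tgfb2, Tgfbr1 and Tgfbr2 below 1, and no gene reaches 2. The intervals leave out variation between pools, and the share of all detected genes whose interval excludes 1 is not given.

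Cell type markers differed between the pools as well. The 8 endothelial markers, the cells in which Eng is best known, summed to 157 TPM in replicate 1 and 153 TPM in replicate 2, with a median log2 ratio of 0.01. All 8 were detected, and Eng was 1.34 and 1.23 times their median of 21.4 and 20.4 TPM. The 6 neuronal markers were all higher in replicate 1, summing to 428 against 329 TPM. Cartilage markers were higher there in 5 of 6 members, at 690 against 618 TPM, and the 6 muscle markers were all lower, at 327 against 399 TPM. Among the 9 facial mesenchyme markers, whose median log2 ratio was 0.02, 3 transcription factors of regional identity differed most. Barx1 had 168 TPM in replicate 1 and 83.9 in replicate 2, Dlx5 had 80.8 and 54.8 TPM, and Alx1 had 103 and 150 TPM. The part of these markers in the ratios of the 7 genes was not tested.

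Markers of the cells best known for Tgfb1 were mostly detected, at levels that differed widely. The 7 macrophage markers were all detected and summed to 71.0 TPM in replicate 1 and 70.0 TPM in replicate 2, with C1qb highest at 22.2 and 23.2 TPM. Of 5 platelet and megakaryocyte markers 4 were detected, led by Pf4 at 49.4 and 44.3 TPM, while Gp1ba stood at 0.210 and 0.120 TPM. These 5 summed to 67.2 TPM in replicate 1 and 61.8 TPM in replicate 2, with 4 higher and 1 lower in replicate 1. The part of these cells in the ratio of Tgfb1 was not tested.

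The genes around the ligands and receptors were taken from 7 lists by role, 56 genes in all. Of these 52 were detected, beside 60.7% of all protein-coding genes. None passed a 2-fold difference between the replicates, where only 0.157% of detected protein-coding genes did. Their median log2 ratio was -0.05.

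Of the 8 genes listed under latency and storage in the matrix, 7 were detected. The fibrillin Fbn2 led, with 73.7 and 76.0 TPM. Ltbp1, which tethers the latent complex to the matrix, stood at 27.4 and 28.7 TPM and Ltbp3 at 21.2 and 19.8 TPM. Nrros and Lrrc32, which dock latent ligand on the surface of macrophages and other cells, stood at 7.75 and 8.67 TPM and at 3.08 and 3.63 TPM. Ltbp2, a family member that does not bind latent TGF-beta, was below the minimum at 0.560 and 0.730 TPM.

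Processing and activating genes were all detected (13 of 13), with a median of 61.5 TPM. Integrin subunits differed widely, from Itgb1, the highest gene of the list at 177 and 191 TPM, to subunits below 5 TPM such as Itgb3 at 2.88 and 2.93 TPM. Itgav, the alpha subunit of the activating integrins, stood at 57.9 and 65.0 TPM. Its partners Itgb8 and Itgb6, which with Itgav release latent Tgfb1 and Tgfb3, stood at 5.17 and 5.00 TPM and at 1.58 and 1.92 TPM, and Itgb5 at 102 and 94.0 TPM. The matrix activator Thbs1 had 70.9 and 71.5 TPM. The protease Furin, which cleaves the ligand precursors, had 8.42 and 7.61 TPM, and the related Pcsk5 had 30.2 and 25.8 TPM.

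Of the 5 genes listed as receptor partners of endoglin and its ligands, 3 were detected. The type I receptor Acvrl1, which works with Eng in endothelium, stood at 8.45 and 8.82 TPM, so Eng was 3.38 and 2.84 times as high. The lowest of the 8 endothelial markers, Tek, stood at 7.69 and 8.47 TPM. The type II receptor Bmpr2 stood at 8.60 and 8.22 TPM. Of the ligands that Eng binds most tightly, Gdf2 had 1 expected count in replicate 1 and 0 in replicate 2, and Bmp10 had 0 in both. Neither ligand transcript was detectable at this depth, and ligand reaching the tissue from elsewhere was not measured.

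Of 7 genes listed with the inhibitors outside the cell or in its membrane, 6 were detected. Emilin1, a matrix protein that limits processing of the Tgfb1 precursor, led at 195 and 197 TPM. The proteoglycans Dcn and Bgn, which bind TGF-beta, stood at 62.1 and 68.0 TPM and at 33.8 and 36.4 TPM. The pseudoreceptor Bambi stood at 16.6 and 18.1 TPM and Lrg1, which modulates endoglin signalling in vessels, at 0.120 and 0.180 TPM.

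All 4 transducers were detected. Smad2 stood at 48.6 and 44.9 TPM and Smad3 at 29.3 and 30.2 TPM, beside their common partner Smad4 at 15.8 and 17.1 TPM. All 8 negative regulators inside the cell were detected as well. The corepressors Tgif1 and Tgif2 led at 89.1 and 98.4 TPM and at 70.3 and 74.3 TPM, and the inhibitory Smad7 was lowest at 7.56 and 6.98 TPM.

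Genes known to respond to TGF-beta were detected in all 11 cases reported here, with levels spread over a wide range. The collagen Col3a1 led at 934 and 932 TPM, and Postn and Tgfbi, matrix proteins named for or known from TGF-beta induction, stood at 144 and 142 TPM and at 94.9 and 93.5 TPM. Ccn2, a growth factor of connective tissue, stood at 8.28 and 7.49 TPM and the cell cycle inhibitor Cdkn2b at 1.34 and 1.57 TPM.

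**Figure D4:**
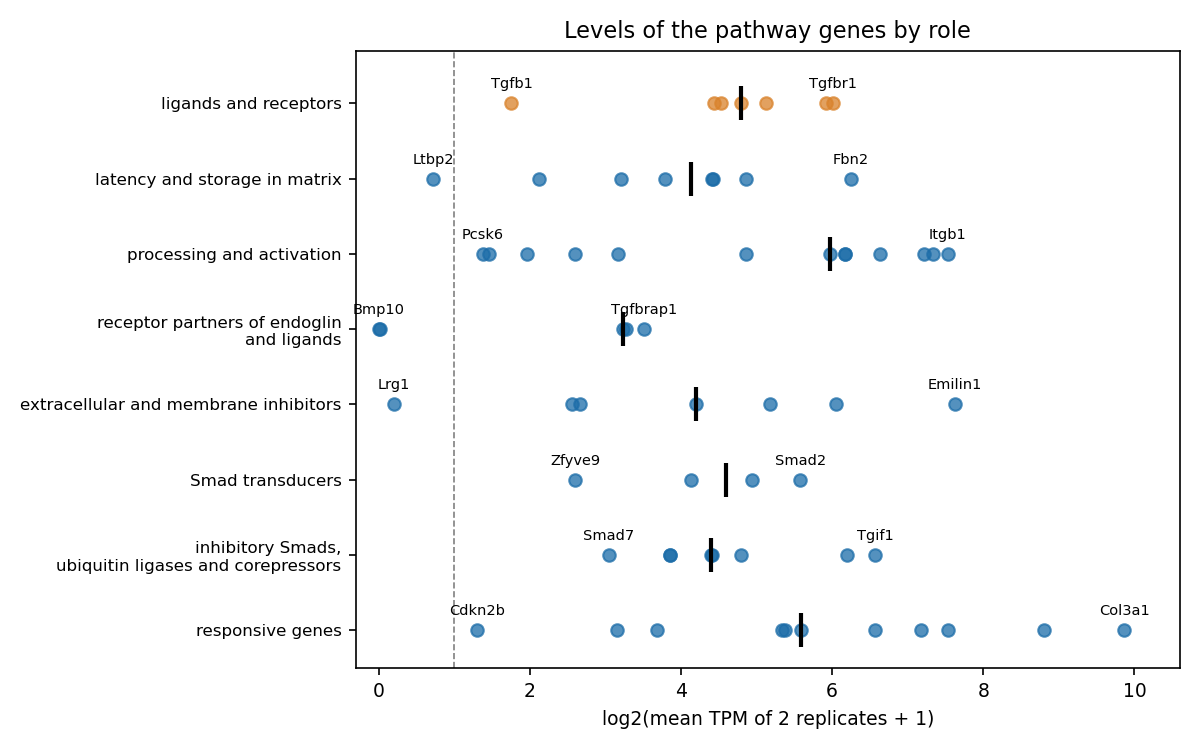
Each point is 1 gene, placed by log2 of its mean TPM over both replicates plus 1, in rows for the 7 ligands and receptors and for the 7 roles of the pathway. Black ticks mark the row medians, the dashed line marks a mean TPM of 1, and the highest and lowest gene of each row are named.

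The choice of annotation release was examined last, as the same reads had been quantified on M21 and on the older M4. None of the 7 genes differed 2-fold in both replicates, where 1.96% of detected protein-coding genes did. Most were slightly lower in M21, 6 of 7, and 75.5% of all compared genes were lower in M21 in both replicates as well. Tgfbr2 had 21.5 and 22.4 TPM in M21, against 24.8 and 26.5 TPM in M4, so that the level in M21 was 0.867 and 0.847 times that in M4. Its expected counts were nearly equal, 2009 and 3047 in M21 against 2004 and 3044 in M4, while the annotated lengths of both isoforms differ as given above. Tgfb1 was the exception, at 2.84 and 1.92 TPM in M21, against 2.70 and 1.81 TPM in M4, where Tgfb1-204 is not annotated and the gene had 66 and 74 expected counts.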

How the data were processed

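Gene and transcript tables of both libraries were used as deposited, on mm10 with the GENCODE releases M21 and M4, as the deposited notes state. Per the file headers they hold an expected count (estimated reads, not always whole), TPM as a maximum-likelihood and a posterior mean estimate, and the percent of a gene carried by each transcript. For the aligner, quantifier and strand setting, the sources used here give none. Effective length was the annotated length minus 99 bases.

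Levels are deposited TPM. Mean ± SD is over n = 2 separate pools. Intervals are exact Poisson or binomial intervals at 95% on rounded expected counts. They reflect counting alone, and leave out variation between pools and in the assignment of reads. PCR copies are a further limit, as they cannot be recognised without molecular identifiers. Ratios between libraries used log2(TPM + 1), which understates differences of low genes. Exon positions came from the M21 annotation, and sequences from its transcripts. The ratio procedure was tested on simulated data. No protein sequences were used. 1 gene of the lists is not reported here and is left out of their counts.

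The members, the lists and the rule for names (the 7 genes, their transcripts at 10% or more in both replicates, and any gene of the lists) were chosen with earlier results of these data known. With 2 libraries of 1 group, no likeness of pattern to other genes was computed. Python 3.11.15, pandas 2.3.3, numpy 2.4.6, scipy 1.17.1 and matplotlib 3.10.9 were used. Alternatives are given in the closing section.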

Additional observations from a re-analysis of the deposited data

How the results depend on the processing

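Of 104 alternative values, 90 stayed within 1 SD of the value reported, or within 1.5 times for counts, and 14 moved. The 90 include levels and shares with 1 replicate left out, which could not move, as each of 2 values lies within 1 SD of their mean. The leading share of Tgfb3, with its single annotated transcript, was also fixed at 100%. None of the 7 genes passed 2-fold between replicates or releases under the alternatives tried. All 7 genes stayed detected except with a minimum TPM of 5, which left 6, and the 56 pathway genes gave 45 to 53 detected. In release M4 the mean TPM was 62.7 for Tgfb2, 35.9 for Tgfb3, 67.2 for Tgfbr1 and 25.6 for Tgfbr2, and the leading transcript of Tgfbr2 carried 70.3%. Posterior mean estimates gave 33.0 TPM for Tgfb3 and 21.3 TPM for Tgfbr2, and leading shares of 46.6% for Tgfb1 and 92.6% for Tgfbr1. On coding transcripts only, an alternative chosen after seeing the data, the means were 1.39 TPM for Tgfb1, 37.2 for Tgfb2 and 14.4 for Tgfbr3, and the ligand shares 51.2% for Tgfb2 and 46.8% for Tgfb3. The cause of the moves was not tested beyond the lengths and transcripts given above. Leaving out either replicate gave the value of the other library, and ratios between replicates then have no value. No paired analysis was possible because there is 1 group. Depth limits Tgfb1 and its transcripts most, at 88 and 103 expected counts.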

Other observations

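The 3 ligands resemble each other in the coding sequence of the active factor, taken as the last 336 coding bases of each leading transcript. Over these bases, compared without gaps, Tgfb1 and Tgfb3 shared 73.5% of bases, Tgfb2 and Tgfb3 70.8%, and Tgfb1 and Tgfb2 68.8%. The longest identical run among them was 15 bases. Over all annotated transcripts of the 7 genes, the longest run shared by any pair was 38 bases, between Tgfb1 and Tgfbr2.

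Several of the genes overlap exons of others, and the strand setting that bears on such reads is not given. Eng shares 61 exonic bases with Fpgs on the opposite strand, which encodes a folate enzyme and had 25.4 TPM in replicate 1 and 24.32 in replicate 2. Tgfbr3 shares 297 bases on its own strand with Gm43422, at 1.02 and 0.91 TPM. Tgfb3 shares 163 bases with Gm37804 (0.4 and 1.02 TPM) and 257 with Gm48008 (0 and 0.09 TPM), both on the opposite strand, and Tgfb2 shares 124 with Gm29491 (1.2 and 0.75 TPM). The expected counts of Tgfb3 and Tgfbr3 were not whole numbers, and those of the other 5 genes were. Counts were also not whole for Gm37804 (3.27 and 11.91), Gm43422 (65.26 and 82.98) and, in replicate 2, Gm48008 (0 and 1.3). Those of Fpgs, which overlaps Eng, were whole at 908 and 1308.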
